A study of Mus musculus with 12 samples.

Results

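The interaction asks, for each transcript, whether a catalase transgene went with a different change in expression in diabetic dB/dB mice than in mice without that genotype. It was computed from the mean log2 values of the 4 groups as (dB/dB catalase-Tg minus dB/dB) minus (catalase-Tg minus wild type). A value of 0 means that the transgene difference was the same size in both, and a negative value that it was lower with dB/dB. All probe sets above 4 on at least 3 of the 12 arrays were taken, 18144 of the 45037 on the array that are not controls, and 16305 of them carry 1 gene symbol and stand for 9751 genes. RNA of proximal tubules, isolated from the kidney on Percoll, was hybridized to Affymetrix mouse arrays, with 3 arrays each for wild-type mice, mice with the catalase transgene, dB/dB mice and dB/dB mice with the transgene. All mice were 20 weeks old and ate a normal diet. The labels give neither sex nor strain, nor what drives the transgene. In work on such mice it is a rat catalase under the promoter of Kap, an androgen-responsive gene of the proximal tubule, so the mouse Cat probe sets do not check those labels.

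Proximal tubule cells take glucose, amino acids and phosphate back from the filtrate, and they are rich in mitochondria and peroxisomes that burn fatty acids. Catalase sits in peroxisomes and breaks down the hydrogen peroxide that their oxidases release. dB/dB mice carry a leptin receptor that does not signal, become obese and diabetic, and are a common model of diabetic kidney disease, in which reactive oxygen species are studied as a source of tubule damage. Crossing a catalase transgene onto them gives a design of 2 factors, and only the interaction compares the transgene's effect between the diabetic and the non-diabetic state.

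Several features of the arrays bear on all that follows. The array median ran from 2.63 to 2.82 and 36.9% to 38.5% of probe sets lay above 4. Scores of the marker lists for other kidney cells, the mean log2 deviation of the tested members from their mean over 12 arrays, differed within groups. The endothelial list (19 genes tested of 20) scored 1.55, -1.47 and -0.10 on wild type 1, 2 and 3, and 0.05, -1.85 and -1.68 in catalase-Tg. It scored from 0.88 to 1.80 in dB/dB, and 1.53, -0.93 and -1.19 in dB/dB catalase-Tg. Weights that limma estimates from each array's spread were 0.17 to 0.29 on replicate 1 of every group but dB/dB, and 0.63 to 3.03 on the other 9. Proximal tubule markers were present on all arrays, and all 41 of the list found on the array passed the filter. Wild type 2 carried Xist, a transcript of female cells, at 11.91 and wild type 3 at 6.72, against at most 2.67 on the other 10 arrays. The Y-linked gene Eif2s3y was at the floor of 2.30 on wild type 2, and it read 7.88 to 8.93 on the other 11, wild type 3 included. Lepr lay at or near the floor in every group and was not tested, so it checks no label. Within bulk tissue, fewer cells of a type and less RNA per cell cannot be told apart. The part of cell makeup in the results below was not tested, apart from a fit with a score of other cells as covariate. The part of sex was not tested. Another fit had a male-enriched score as covariate, which read -2.66, -0.88 and 1.97 on wild type 1, 2 and 3. That score did not follow Xist on these arrays, so the fit is no test of sex.

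Across all probe sets the 2 transgene differences ran largely in parallel. The interaction had a median of 0.01 and its quartiles were -0.21 and 0.24. The transgene difference without dB/dB and that with dB/dB come from different arrays, and across the 18144 probe sets they correlated at r = 0.73 and had the same sign in 13085 (72.1%), a description over probe sets that share arrays. Cell marker lists shifted in both. Their median differences without and with dB/dB were -2.84 and -2.46 for podocyte and -1.97 and -1.04 for loop of Henle genes. They were -1.09 and -1.68 for endothelial and 0.84 and 0.85 for proximal tubule genes. The part of cell makeup in this correlation was not tested. A single probe set passed the threshold of 0.05 after Benjamini-Hochberg adjustment in limma, 0.00551% of those tested, and it lay below 0. At an unadjusted p under 0.05 there were 297 (1.64%), 112 above 0 and 185 below, against 907.2 on average if no probe set differed. Probe sets share arrays, so such a count can stray far from that average. The count of 297 turned on the arrays used and their weights. It was 684 without wild type 1, 884 without dB/dB catalase-Tg 1 and 222 to 421 without any other single array. It was 1878 with array weights, 3486 with replicate 1 of every group but dB/dB left out and 1652 without wild type 2 and 3, all above 907.2, and 427 to 617 with the replicate block or a score as covariate. The contrast draws on 4 means, and its median standard error (SE) of 0.43 exceeds the 0.30 of either transgene difference alone. The 95% interval lay wholly within -1 to 1, at most a 2-fold difference in response, for 6173 probe sets (34.0%), and within -2 to 2 for 14603 (80.5%). For the other probe sets the interval reached past -1 or 1, so a difference above 2-fold was not excluded there, and for 17847 of all tested (98.4%) the interval held 0.

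**Figure D1:**
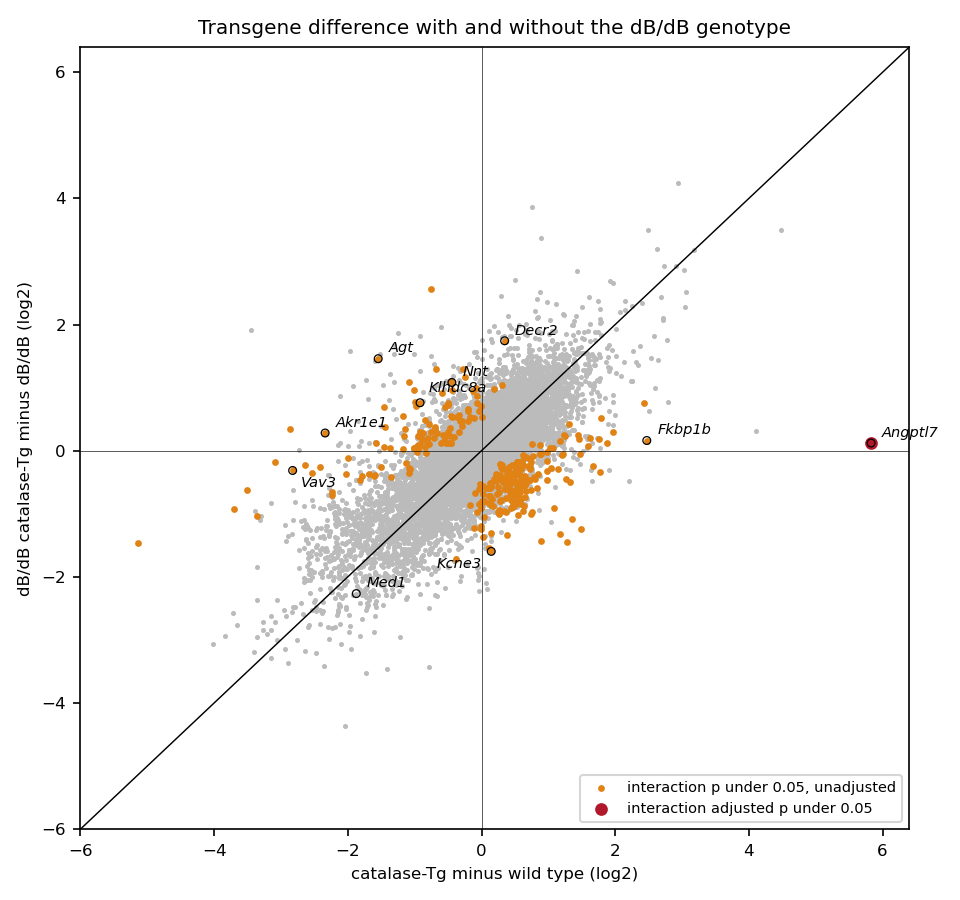
Each point is 1 of 18144 probe sets, with the transgene difference without dB/dB (catalase-Tg minus wild type, log2) on the x axis and that with dB/dB (dB/dB catalase-Tg minus dB/dB, log2) on the y axis. The diagonal marks an interaction of 0. Angptl7 lies far to the right at 5.83 and 0.12, and Med1 close to the diagonal at -1.87 and -2.27.

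The transcript that passed was Angptl7, an angiopoietin-like protein that is secreted and best known from the eye, where it affects intraocular pressure. Its only probe set read 2.49, 2.48 and 2.49 in wild type, 7.51, 7.96 and 9.47 in catalase-Tg, 2.36, 2.49 and 2.37 in dB/dB, and 2.60, 2.49 and 2.49 in dB/dB catalase-Tg (log2 levels). The 3 catalase-Tg arrays stood far above the other 9, which all lay near the floor of the scale. Angptl7 thus passed the filter on low values only through the group where it is high, and with no filter its adjusted p was 0.0475. Without dB/dB the transgene difference was thus 5.83 (SE 0.39, adjusted p = 0.000451), and among dB/dB mice it was 0.12 (SE 0.39, adjusted p = 0.925). The interaction was -5.71 (SE 0.55, 95% interval -6.93 to -4.48, adjusted p = 0.0163). Since the reading fell to background in 3 groups, that size is limited by background. The fit assumes 1 spread for all groups, whereas the SD was 1.03 in catalase-Tg and 0.01 to 0.07 elsewhere. An SE from the groups' own SDs came to 0.60. The call was lost without any 1 of wild type 1, wild type 2, catalase-Tg 2, and each dB/dB and dB/dB catalase-Tg array, with adjusted p-values of 0.0557 to 0.110, while the interaction itself stayed between -6.15 and -5.13 in the other fits tried. No probe set at all passed in those 9 of the 12 fits with 1 array left out.

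Fkbp1b had the next smallest p. It encodes an immunophilin that binds ryanodine receptors, the calcium release channels of the endoplasmic reticulum. Its levels were 2.66, 2.52 and 2.36 in wild type, 5.15, 4.59 and 5.21 in catalase-Tg, 2.55, 2.54 and 2.55 in dB/dB, and 3.07, 2.52 and 2.52 in dB/dB catalase-Tg. As with Angptl7, catalase-Tg lay above every other array, the highest of which read 3.07, and Fkbp1b passed the filter only through that group. The interaction was -2.31 (SE 0.31, 95% interval -2.99 to -1.63) and did not pass (adjusted p = 0.150), while the transgene difference without dB/dB passed (2.47, adjusted p = 0.00317), as it did for 4 probe sets (0.0220%). Among catalase-transgenic mice the dB/dB difference was -2.28 (adjusted p = 0.00686) for Fkbp1b and -5.79 (adjusted p = 0.000485) for Angptl7, 2 of the 5 probe sets (0.0276%) called there.

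Promoters of these 2 genes are shown because they have the smallest p in the interaction and the same pattern over the groups. Each is the 250 bases before the RefSeq start (GRCm38.p6, minus strand), chr4:148500463-148500712 for Angptl7 and chr12:4841574-4841823 for Fkbp1b, and capitals mark matches to 6 motifs searched on both strands.
Angptl7: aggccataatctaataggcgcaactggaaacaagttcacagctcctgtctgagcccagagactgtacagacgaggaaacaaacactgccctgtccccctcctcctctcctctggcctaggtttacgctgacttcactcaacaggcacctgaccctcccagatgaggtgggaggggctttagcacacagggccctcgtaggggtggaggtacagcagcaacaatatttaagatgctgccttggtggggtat
Fkbp1b: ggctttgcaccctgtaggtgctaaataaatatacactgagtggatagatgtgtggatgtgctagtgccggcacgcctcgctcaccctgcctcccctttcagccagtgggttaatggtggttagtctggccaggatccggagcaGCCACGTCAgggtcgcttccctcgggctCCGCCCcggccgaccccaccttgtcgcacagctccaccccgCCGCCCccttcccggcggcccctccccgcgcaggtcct
The motifs were TATAAA (the TATA box), AGAACA (a site of androgen and glucocorticoid receptors), AGGTCA (a nuclear receptor site), TGACNNNGC (the core of the antioxidant response element), CCAAT and GGGCGG (the GC box). The Angptl7 promoter, with a GC content of 54.4%, held none of these letters. The Fkbp1b promoter, with a GC content of 64.8%, held TGACNNNGC 99 bases before the start and GGGCGG 74 and 33 bases before it, all on the opposite strand. Of 32851 mouse promoters of that length, 10.2% held TGACNNNGC and 32.7% held GGGCGG, so neither match is rare. The other shares were 12.4% for TATAAA, 16.1% for AGAACA, 14% for AGGTCA and 33.8% for CCAAT. No further pattern is drawn from either window.

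The genes next to them did not show the pattern. In RefSeq's GRCm38.p6 table Angptl7 lies inside the span of Mtor, the kinase of nutrient signalling. Mtor averaged 8.75 in wild type and 9.34 in catalase-Tg, while dB/dB averaged 8.37 and dB/dB catalase-Tg 8.89, with an interaction of -0.06 (95% interval -1.37 to 1.24). Over the 3 tested of the 6 protein-coding neighbours, the interaction ran from -0.06 to 0.40. For Fkbp1b, 3 of 6 neighbours were tested and ran from -0.45 to 0.06. None of these 6 had an unadjusted p under 0.05 in limma's test, the smallest being 0.153.

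**Figure D2:**
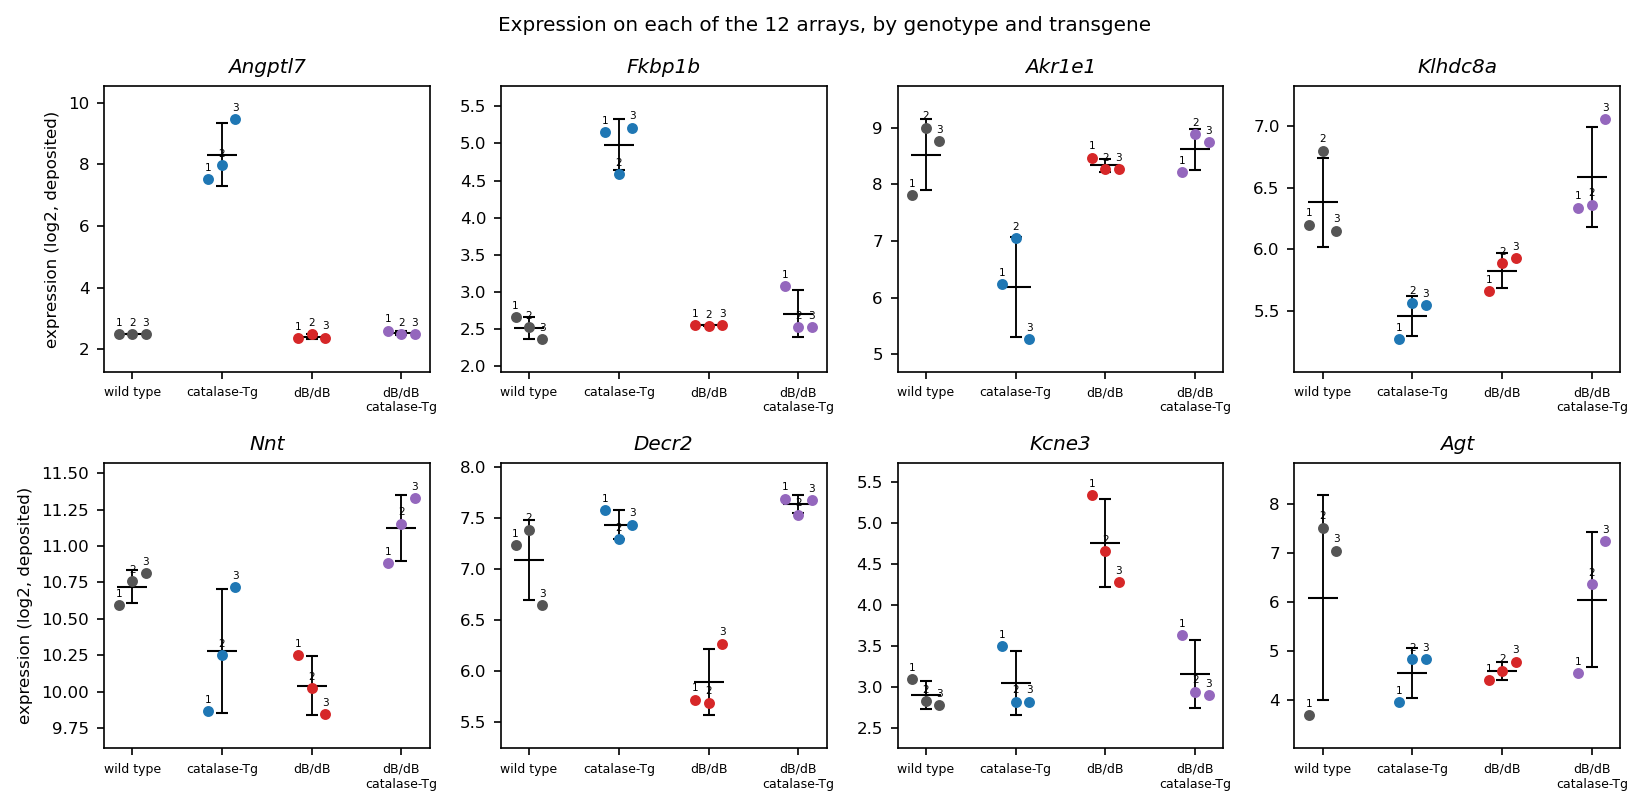
Deposited log2 expression of 8 genes on each array, by group, with points numbered by the replicate in the labels, and a bar for the mean with its SD (n = 3). In Angptl7 and Fkbp1b catalase-Tg stands above the other 9 arrays, in Akr1e1 and Klhdc8a below them, in Decr2 dB/dB stands below and in Kcne3 above, and Nnt is highest in dB/dB catalase-Tg.

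An interaction can arise in several ways, and which group stood apart was counted for the 297 probe sets with an unadjusted p under 0.05. In 237 (79.8%) the 2 transgene differences had opposite signs, against 27.8% of all tested; the selection by p favours such probe sets, so this share describes them only. Catalase-Tg lay wholly above or below the other 9 arrays in 76 (36 above, 40 below), dB/dB in 28, dB/dB catalase-Tg in 21 and wild type in 9, and in 169 no group stood apart. The selection by p also favours probe sets with 1 group apart, so these counts describe the 297 only. Among all tested, catalase-Tg stood apart in 941 (5.19%), dB/dB in 240 (1.32%), dB/dB catalase-Tg in 116 (0.639%) and wild type in 106 (0.584%). By direction, dB/dB catalase-Tg was above the rest in 11 (0.0606%) and below in 105 (0.579%), wild type above in 89 (0.491%) and below in 17 (0.0937%), catalase-Tg above in 511 (2.82%) and below in 430 (2.37%), and dB/dB above in 89 (0.491%) and below in 151 (0.832%). The 297 were dimmer than the rest, with a mean below 6 in 66.3%, against 42.2% of all. Counted without a test, all 9 transgene differences between single arrays with dB/dB lay above all 9 without it for 54 probe sets (0.298%) and below for 108 (0.595%). Those 162 (0.893%) include 121 of the 297, and the genes that follow are short of the threshold throughout.

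Among the genes named for an interaction above 0, several were lowest in catalase-Tg. Akr1e1, an aldo-keto reductase, read 7.81, 9.0 and 8.76 in wild type, 6.23, 7.05 and 5.27 in catalase-Tg, 8.47, 8.27 and 8.26 in dB/dB, and 8.21, 8.89 and 8.75 in dB/dB catalase-Tg. Catalase-Tg lay below all other arrays, which overlapped one another. The interaction was 2.62 (SE 0.61, adjusted p = 1.00), and a second, dimmer probe set gave 1.19 (SE 0.42). Klhdc8a, a kelch-domain protein, read 6.20, 6.80 and 6.15 in wild type, 5.27, 5.57 and 5.55 in catalase-Tg, 5.66, 5.89 and 5.93 in dB/dB, and 6.34, 6.36 and 7.06 in dB/dB catalase-Tg. This gave a transgene difference of -0.92 without dB/dB and 0.76 with it, and neither pair of groups overlapped. That gave an interaction of 1.68 (SE 0.35, adjusted p = 1.00), and its second probe set 1.14 (SE 0.54). Vav3, a guanine nucleotide exchange factor, had 2.51 (SE 0.70) and, on 2 other probe sets, 0.65 and 1.58. Slc9a2, a sodium-hydrogen exchanger, had 1.82 (SE 0.46), with catalase-Tg at 4.19 to 4.73 below all other arrays at 4.94 to 6.32. Fbxo44 (1.42) and Fbxl16 (1.21), both F-box proteins, also had catalase-Tg lowest. Zfp991, a zinc finger protein, gave 1.70 on its tested probe set, with catalase-Tg lowest at 2.53 to 3.61. On a second Zfp991 probe set, too dim to be tested, catalase-Tg was instead highest, at 3.78 to 4.64 against at most 2.98, so the gene has no settled direction.

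Nnt and Decr2, enzymes tied to peroxide and fatty acid metabolism, also had interactions above 0. Nnt, the transhydrogenase of the inner mitochondrial membrane, makes the NADPH that glutathione-dependent peroxide removal uses. It read 10.59, 10.76 and 10.81 in wild type, 9.87, 10.25 and 10.72 in catalase-Tg, 10.25, 10.02 and 9.85 in dB/dB, and 10.88, 11.15 and 11.33 in dB/dB catalase-Tg. The dB/dB catalase-Tg arrays were the 3 highest and did not overlap dB/dB, while catalase-Tg overlapped both wild type and dB/dB. The transgene difference was -0.44 (SE 0.23) without dB/dB and 1.08 (SE 0.23) with it, an interaction of 1.52 (SE 0.33, 95% interval 0.80 to 2.25, adjusted p = 1.00). A second bright probe set gave 1.40 (SE 0.41).

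Decr2, the dienoyl-CoA reductase of peroxisomes that unsaturated fatty acids need for their oxidation, read 7.24, 7.39 and 6.65 in wild type, 7.58, 7.30 and 7.44 in catalase-Tg, 5.72, 5.69 and 6.27 in dB/dB, and 7.69, 7.54 and 7.68 in dB/dB catalase-Tg. The dB/dB arrays lay below the other 9, and the dB/dB catalase-Tg arrays lay above every wild-type array. Without dB/dB the transgene difference was 0.35, and among dB/dB mice it was 1.74 (SE 0.23, adjusted p = 0.143), an interaction of 1.40 (SE 0.33, adjusted p = 1.00). Cdk5rap1, an enzyme that modifies mitochondrial transfer RNA, read 8.35, 8.66 and 8.64 in wild type, 7.92, 7.18 and 7.03 in catalase-Tg, 6.53, 6.11 and 6.68 in dB/dB, and 6.27, 7.46 and 7.23 in dB/dB catalase-Tg. Wild type stood above the other 9 arrays, and the interaction of 1.72 (SE 0.47) came from a difference of -1.17 without dB/dB and 0.55 with it.

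Among genes with an interaction below 0, Kcne3 had the mirror image of Decr2. This accessory subunit of potassium channels read 3.09, 2.83 and 2.78 in wild type, 3.50, 2.82 and 2.82 in catalase-Tg, 5.34, 4.66 and 4.28 in dB/dB, and 3.64, 2.94 and 2.90 in dB/dB catalase-Tg. The dB/dB arrays stood above the other 9, which overlapped. Kcne3 passed the filter on low values only through dB/dB, the group where it is high. The transgene difference was 0.14 without dB/dB and -1.60 with it, an interaction of -1.74 (SE 0.44, adjusted p = 1.00). Bmf, a BH3-only protein that promotes apoptosis and has been studied in these mice, had the same arrangement, with dB/dB at 5.48 to 5.86 above all other arrays at 3.77 to 5.16. Its transgene difference was -0.05 without dB/dB and -1.02 with it, an interaction of -0.97 (SE 0.44, 95% interval -1.95 to 0.02, adjusted p = 1.00). For both genes dB/dB catalase-Tg 1, the array of its group with the highest endothelial score, was also the closest of its group to dB/dB.

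For several of the other genes below 0 the probe sets of 1 gene went apart. Pabpc1, the main cytoplasmic poly(A)-binding protein, had -1.72 (SE 0.39) on a dim probe set at 3.46 to 5.29 and -0.07 (SE 0.21) on a bright one at 10.73 to 11.26. Relch, a protein of recycling endosomes, had -2.0 (SE 0.39) on 1 probe set and 0.08 and -0.31 on 2 brighter ones. Nfs1, the cysteine desulfurase of iron-sulfur cluster assembly, had -1.42 on a dim probe set and 0.18 and 0.12 on brighter ones. Zbtb20, a transcriptional repressor, had -1.22 (SE 0.31) on 1 of 9 probe sets and -0.74 to 0.01 on the other 8. Angiogenin (Ang), a secreted ribonuclease, had -2.10 (SE 0.53) on 1 probe set and a value close to 0 (SE 0.78) on another. In these 5 genes the smallest p therefore describes a probe set, not the gene. Rai14, an actin-binding protein, was below 0 on all 3 tested probe sets (-1.74, -0.65 and -0.28). Tmem108 (-1.36, SE 0.35) and 1700028P14Rik (-1.57, SE 0.38) had 1 tested probe set each. The latter had catalase-Tg at 5.87 to 6.12 above the other arrays at 3.29 to 4.85.

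After Angptl7 and Fkbp1b, the smallest p-values belonged to 2 probe sets without a gene symbol, both with adjusted p = 0.528. The first read 7.82, 8.29 and 6.83 in wild type, 4.02, 4.26 and 4.14 in catalase-Tg, 6.66, 6.69 and 6.65 in dB/dB, and 6.46, 5.59 and 6.06 in dB/dB catalase-Tg, an interaction of 2.88 (SE 0.48). Its transgene difference was -3.51 without dB/dB and -0.63 with it, so the catalase-Tg arrays were again lowest. The other had -1.90 (SE 0.32), with catalase-Tg at 6.88 to 7.33 above the other arrays at 5.03 to 5.83.

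**Figure D3:**
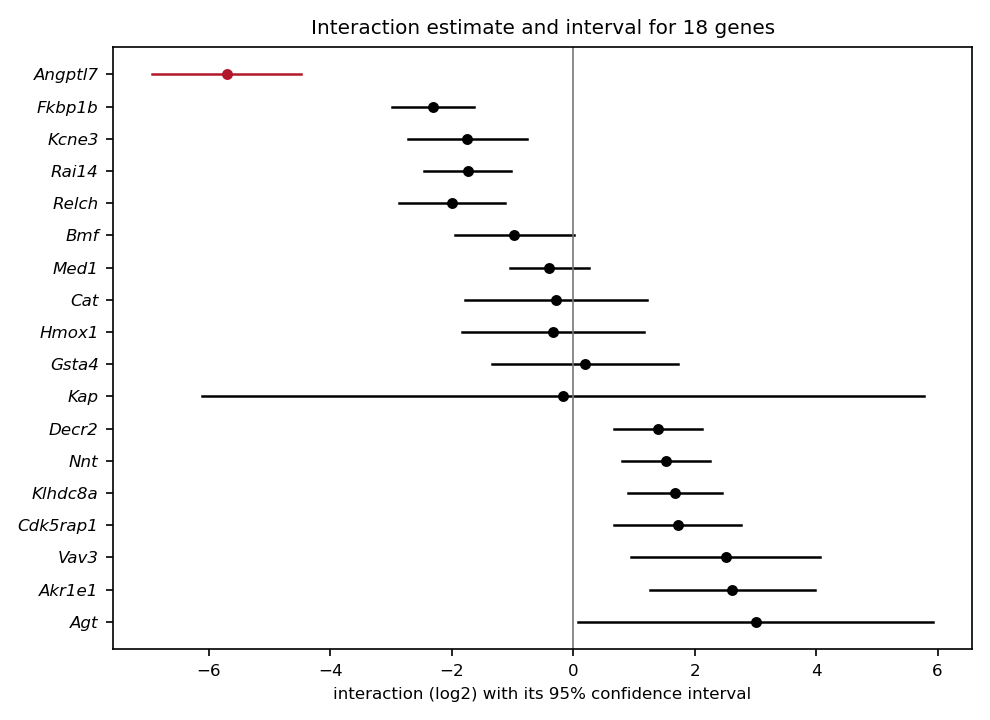
Interaction (log2, points) of 18 genes with its 95% interval from limma (lines), with the gene past the adjusted threshold in red. The interval of Angptl7 runs from -6.93 to -4.48, that of Med1 from -1.05 to 0.26, and that of Kap from -6.12 to 5.77.

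The genes on which work with these mice has centred gave wide intervals. The brighter Cat probe set had an interaction of -0.28 (SE 0.67, 95% interval -1.78 to 1.21) and the second 0.23 (SE 0.81). Hmox1, heme oxygenase of the oxidative stress response, had a transgene difference of 1.14 without dB/dB and 0.81 with it, and an interaction of -0.33 (95% interval -1.82 to 1.17). Gsta4, which detoxifies products of lipid peroxidation, had -1.62 and -1.42, an interaction of 0.20 (95% interval -1.33 to 1.73). Kap ranged from 8.46 to 15.26 within catalase-Tg alone, and its interaction of -0.17 had an SE of 2.68. Eif2s3y had -2.69 (SE 1.70), and without wild type 2, where it was at the floor, it was -0.78 (SE 0.34). The directions for Cat, Hmox1, Gsta4 and Kap turned under some alternatives. Casp12, Tgfb1, Lepr and Xist did not pass the filter and have no tested interaction.

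Angiotensinogen (Agt), the precursor of angiotensin, was split within groups. It read 3.68, 7.53 and 7.05 in wild type, 3.95, 4.84 and 4.83 in catalase-Tg, 4.40, 4.60 and 4.78 in dB/dB, and 4.54, 6.36 and 7.25 in dB/dB catalase-Tg. Wild type 2 and 3 and dB/dB catalase-Tg 2 and 3 were high, and replicate 1 of both groups was as low as the other groups. The transgene difference was -1.55 without dB/dB and 1.46 with it, an interaction of 3.00 (SE 1.32, 95% interval 0.08 to 5.92, adjusted p = 1.00). With replicate 1 of every group but dB/dB left out it was 4.67 (adjusted p = 0.0309), and other fits gave values down to 0.60. That fit leaves wild type with the 2 arrays that carry Xist.

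Med1 is a subunit of the Mediator complex that links transcription factors to RNA polymerase. On the brightest of its 4 tested probe sets it changed in the same direction with and without dB/dB. It read 8.02, 7.98 and 8.03 in wild type, 5.99, 6.12 and 6.32 in catalase-Tg, 8.21, 8.23 and 8.39 in dB/dB, and 5.54, 6.17 and 6.32 in dB/dB catalase-Tg. Every array with the transgene lay below every array without it. On this probe set Med1 fell by 1.87 (adjusted p = 0.0146) without dB/dB and fell by 2.27 (adjusted p = 0.00974) with it. The interaction was -0.39 (SE 0.29), and its 95% interval of -1.05 to 0.26 spans from a clearly larger fall with dB/dB to a slightly smaller one. On 3 other tested Med1 probe sets the interaction lay between -0.31 and 0.01. None of these 3 passed in the transgene difference with dB/dB, where 1 probe set was called in all.

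Gene lists were described by counts, beside all 9751 genes tested, of which 5113 lay above 0 and 4638 below, with a median of 0.02, and 1 passed. No member of the 30 lists passed. The peroxide-removing and other antioxidant enzymes had a median of 0.05 (14 of 24 above 0), and NRF2 targets and glutathione genes one of 0.06 (18 of 32 above 0). Srxn1, which restores oxidized peroxiredoxins, had 0.62 (SE 0.33), and Mgst1, a microsomal glutathione transferase, 1.15 (SE 0.54). Both medians turned sign under some of 15 alternatives, 7 and 5 of them respectively. For lists these were arrays centred on their medians, each single array left out, and the 2 sets of arrays named above left out. Array weights, covariates, the replicate block, quantile normalization and other filters were not tried on list medians. Peroxisomal genes had a median of 0.12 (32 of 46 above 0) and, apart from Decr2, no other member had an unadjusted p under 0.05. The peroxide-producing oxidases had 0.34 (10 of 16 above 0). The peroxisomal median turned sign under 6 of the 15 alternatives (-0.47 to 0.56), and that of the oxidases under 2 (-1.11 to 0.85).

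Fatty acid oxidation and PPAR target genes lay above 0 in 27 of 32, with a median of 0.24, and lipid and sterol synthesis genes in 25 of 31, with a median of 0.27. Their members include Sqle, squalene epoxidase of cholesterol synthesis, at 1.22 (SE 0.43), Hmgcs1, an early enzyme of that pathway, at 0.84 (SE 0.49), Acadl, an acyl-CoA dehydrogenase, at 0.55 (SE 0.41) and Plin2, a lipid droplet protein, at 1.02 (SE 0.82). Sqle had a transgene difference of -0.49 without dB/dB and 0.72 with it. Cyp4a14, a PPAR-alpha target and fatty acid hydroxylase, had 5.35 with an SE of 3.02, and wild type alone ran from 2.48 to 11.74. The median of the lipid synthesis list stayed above 0 under all 15 alternatives (0.03 to 0.43), and that of the fatty acid oxidation list under 14. Respiratory chain subunits had a median of 0.03 (28 of 48 above 0), with quartiles of -0.04 and 0.13. That median turned sign under 6 of the 15 alternatives.

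**Figure D4:**
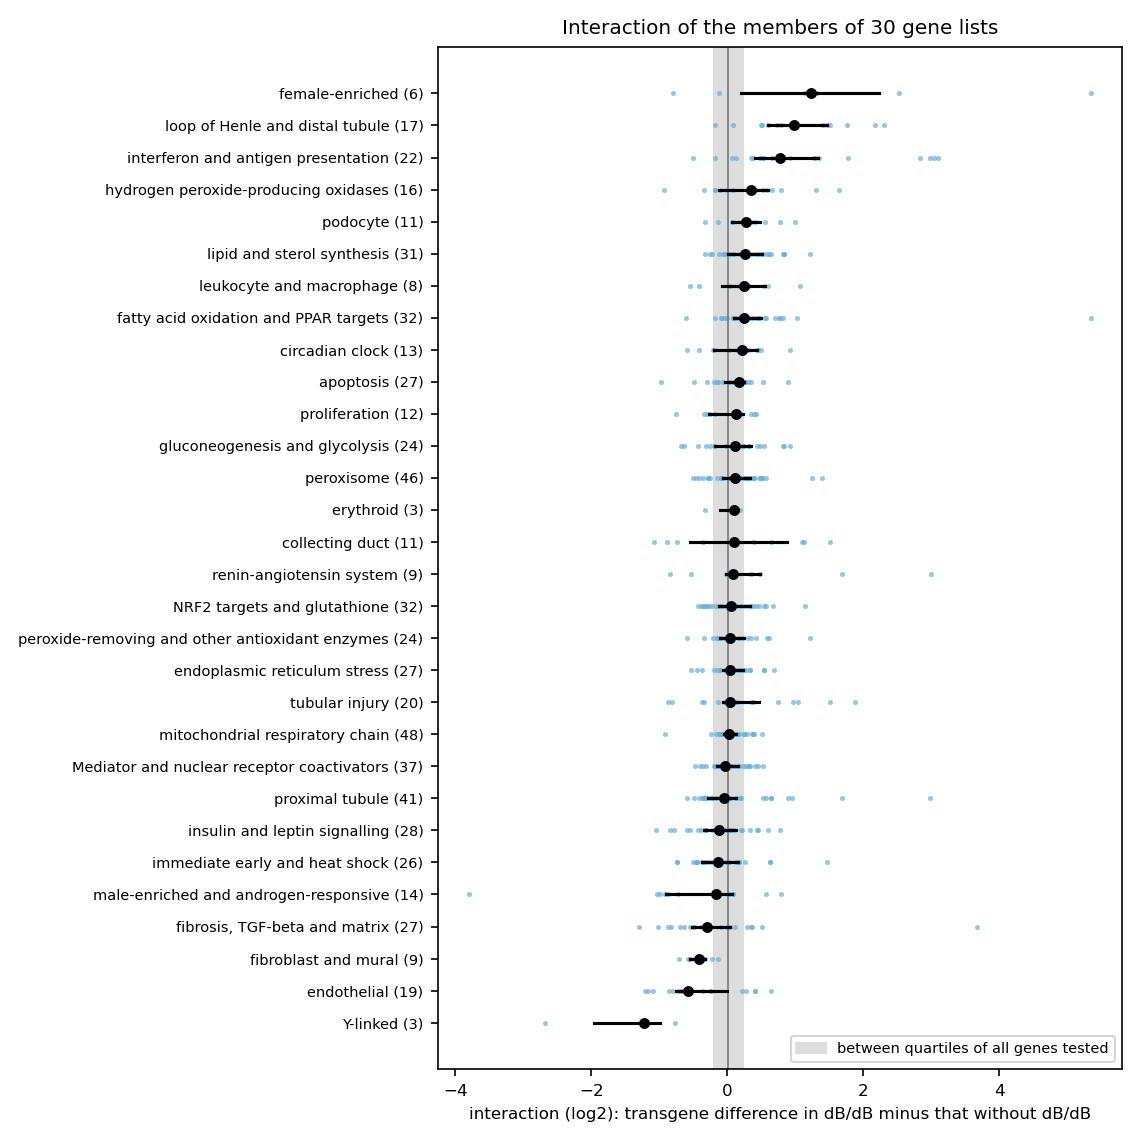
Interaction (log2) of the tested members of 30 gene lists (blue points, number tested in brackets), with the list's median (black point) and quartiles (black line), and the range between the quartiles of all genes tested in grey. The female-enriched list lies farthest right, with a median of 1.23, followed by the loop of Henle and interferon lists at 0.99 and 0.78. The Y-linked list lies farthest left, at -1.22, followed by the endothelial list at -0.58.

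Markers of nephron segments other than the proximal tubule were also listed. Of 17 loop of Henle and distal tubule genes 16 lay above 0, with a median of 0.99. Slc12a1, the sodium-potassium-chloride cotransporter of the thick ascending limb, read 13.85, 11.09 and 12.78 in wild type, 8.70, 10.64 and 10.77 in catalase-Tg, 13.53, 12.55 and 13.41 in dB/dB, and 12.84, 12.70 and 12.88 in dB/dB catalase-Tg. All catalase-Tg arrays lay below all others. Its interaction was 2.18 (SE 0.97, 95% interval 0.02 to 4.34). Cldn16, a tight junction protein of that segment, had 2.31 (SE 1.16), Egf 1.48 (SE 0.75) and the prostaglandin receptor Ptger3 1.52 (SE 0.88). The list's score was 1.61, -1.59 and 0.37 on wild type 1, 2 and 3, so wild type spanned the range from the catalase-Tg arrays (-2.15 to -1.38) to the dB/dB arrays (0.98 to 1.41). The list's median ran from -0.25 to 2.87 over 15 alternatives. Proximal tubule markers had a median of -0.04 (17 of 41 above 0).

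Endothelial genes lay below 0 in 14 of 19, with a median of -0.58, and all 9 fibroblast and mural genes did, with a median of -0.41. Flt1, a VEGF receptor, had -1.17 (SE 0.99) and Pdgfra, a fibroblast receptor, -0.70 (SE 1.16), and these intervals include 0. Podocyte genes had a median of 0.28 (9 of 11 above 0). These 3 medians also turned sign under 3 to 5 of 15 alternatives. Defining markers of these cells were far from the floor on some arrays: Synpo of podocytes read 9.95, 4.52 and 8.99 in wild type. Their part in the other results was not tested, beyond a fit with their mean score as covariate. In that fit Angptl7 passed and all 29 genes followed kept their direction. Most of the 29 were chosen by their small p in these data, so a kept direction was likely from the start.

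Of 22 interferon response and antigen presentation genes 20 lay above 0, with a median of 0.78. H2-Aa, a chain of MHC class II, had 3.04 (SE 1.79). It read 12.75 on dB/dB catalase-Tg 1, against 8.02 and 6.77 on the other arrays of that group. H2-Eb1 had 2.84 (SE 1.31) and likewise its highest value, 9.20, on dB/dB catalase-Tg 1. Ifit2, an interferon-induced gene, had 1.36 (SE 0.50), with catalase-Tg at 3.36 to 4.05 below all others at 4.14 to 5.77. The list scored 2.53 on dB/dB catalase-Tg 1 and -0.19 and -0.80 on the other arrays of its group, and the median ran from -0.23 to 1.26 over the alternatives, turning sign in 2 of 15.

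**Figure D5:**
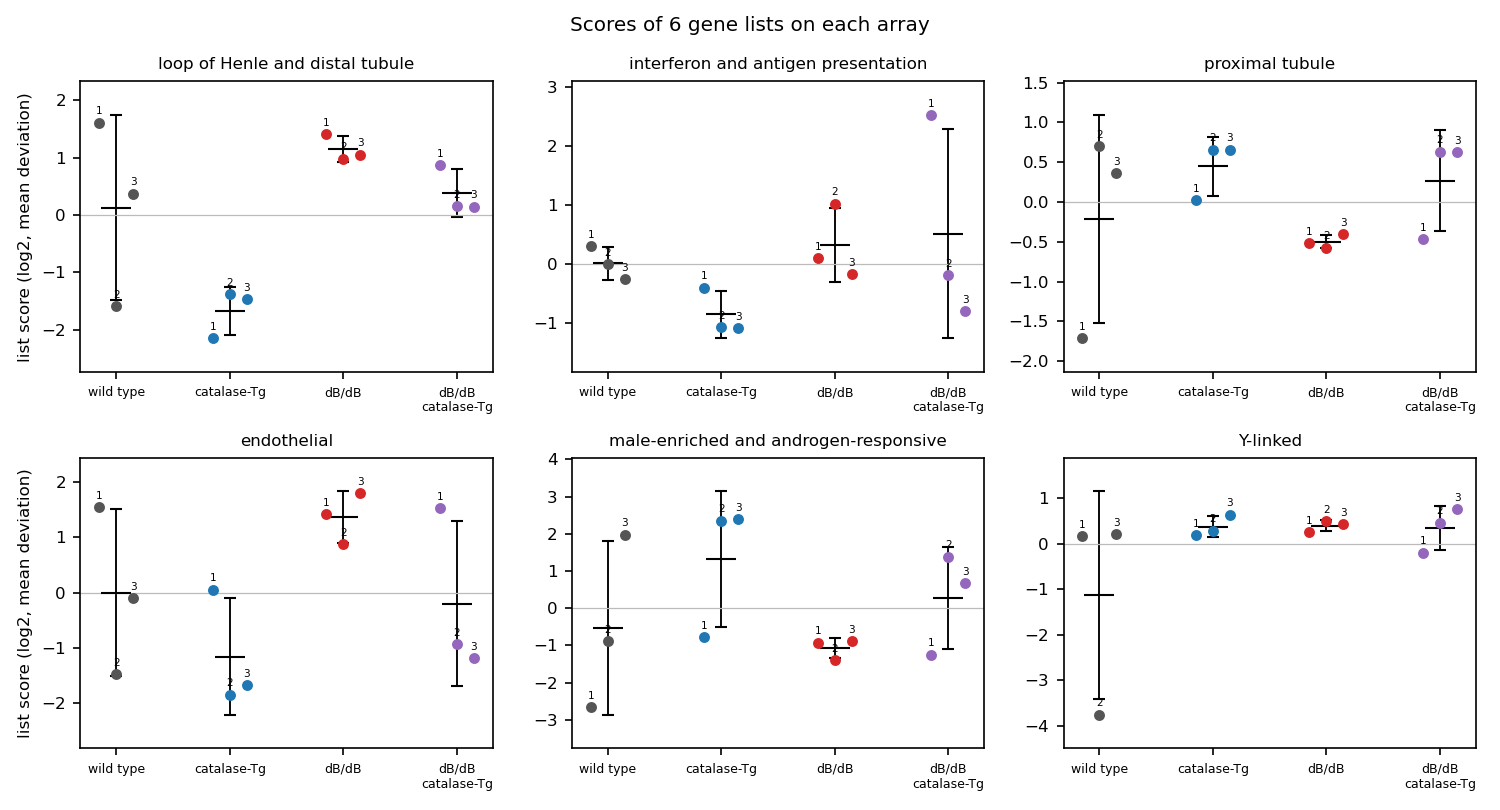
Score of 6 gene lists on each array (mean log2 deviation of the tested members from their mean over 12 arrays), by group, with the mean and SD (n = 3). Replicate 1 of every group but dB/dB scores lower than the other arrays of its group in the proximal tubule list and higher in the endothelial list, and wild type 2 is the lowest array in the Y-linked list.

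Sex-linked and sex-biased lists moved with single arrays. Androgen-responsive and male-enriched genes had a median of -0.17 (6 of 14 above 0), and female-enriched genes 1.23 (4 of 6 above 0). Cyp2j13, a male-enriched cytochrome P450, had -3.79 (SE 2.36) and read 5.64, 2.70 and 10.64 in wild type. The 3 Y-linked genes tested, Eif2s3y, Kdm5d and Uty, all lay below 0 (-2.69, -1.22 and -0.77), with wild type 2 at or near the floor in each.

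Other lists held single genes with a small unadjusted p. Cdkn1a, a cell cycle inhibitor, had 0.90 (SE 0.33), with dB/dB catalase-Tg at 5.83, 5.04 and 5.84 and catalase-Tg at 4.35, 4.35 and 4.67; apoptosis genes had a median of 0.17 (20 of 27 above 0). Irs2, an adaptor of the insulin receptor, had -0.79 (SE 0.24), with catalase-Tg at 4.44 to 4.71 above all others at 3.42 to 3.88. Irs2 thus passed the filter only through catalase-Tg, the group where it is high. The insulin and leptin list had a median of -0.11 (12 of 28 above 0). S100a10, an annexin partner, had 1.04 (SE 0.33) and 1.05 on its 2 bright probe sets, with catalase-Tg below all others on both; the tubular injury list had 0.04 (11 of 20 above 0). Pfkl, the liver phosphofructokinase, had 0.83 (SE 0.31) on 1 probe set and 0.29 on a dimmer one. Col5a2, a fibrillar collagen chain, had 3.68 (SE 1.58) and 2.41 (SE 0.87), and read 10.53 on wild type 1, against 2.51 to 4.73 in catalase-Tg; the fibrosis list had -0.29 (10 of 27 above 0). None of these 5 genes passed the adjusted threshold.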

How the data were processed

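Each of the 12 samples was hybridized to 1 array. Values were deposited by the authors as log2 expression, 1 per probe set and array. GCRMA, which corrects background and normalizes arrays together, and limma are named, per the submitters' processing notes; versions are not given in the sources used here. Of 45101 rows 64 were controls; 34945 probe sets had 1 gene symbol, 932 several and 9160 none, and symbols checked in RefSeq (GRCm38.p6) gave 0 updates. Ddx3y was not found among them. In the lists, among neighbours and for the genes named without regard to p, a gene was represented by its tested probe set with the highest mean. A gene named for its small p was represented by its probe set with the smallest p, so that choice depended on the outcome.

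The interaction was fitted in limma 3.58.1 (R 4.3.3) with 1 mean per group, all 12 arrays, default empirical Bayes and Benjamini-Hochberg adjustment over 18144 probe sets, threshold 0.05, and tested on simulated data. The labels number the replicates 1 to 3 and do not state whether each is a different animal; p-values therefore describe a spread between samples that may be technical. The number of arrays limits precision.

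Named genes are those past the threshold, up to 10 more per direction by smallest p, the genes Cat, Lepr, Kap, Bmf, Agt, Hmox1, Med1, Angptl7, Fkbp1b, Casp12, Tgfb1, Gsta4, Xist, Eif2s3y and Ddx3y, and up to 4 per list described by smallest p. Of the 871 entries of 30 lists 785 were on the array. Members and lists were chosen with earlier results of these data known. Neighbouring genes and probe sets without a symbol were chosen with their values already known. Alternatives changed the normalization, filter, estimate of spread, weights of arrays, choice of probe set, replicate block, covariates and arrays left out. List medians were recomputed only with centred arrays and with arrays left out.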

Additional observations from a re-analysis of the deposited data

Results flagged for a closer look

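The transgene differences with and without dB/dB differed for Angptl7 by limma's test of the difference itself, with an interaction of -5.71 (log2, SE 0.55, adjusted p = 0.0163). All 3 catalase-Tg arrays lay above the other 9. No other result met a rule for a closer look, and single outlying arrays were not searched for in groups of 3.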

How the results depend on the processing

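The count of 1 probe set past the threshold was the same with another spread estimate, array weights, quantile normalization and centred arrays. The same held with 1 probe set per gene and with each covariate. A stricter filter and another filter by group also left 1. Angptl7 passed both of these filters only through catalase-Tg, the group where it is high, so they do not check its call. The count was 6 with no filter, the others being probe sets below 4 on every array. It was 0 without wild type 2 and 3 together, 143 with replicate 1 of every group but dB/dB left out (97 above 0 and 46 below, Angptl7, Fkbp1b, Cdk5rap1 and Agt among them), and 0 to 2 with 1 array left out. These 2 sets of arrays were picked after seeing the data, and fewer samples enter such fits; otherwise the cause was not tested. With the replicate number as a block the count was 0 (Angptl7 at adjusted p = 0.0527). The labels do not say whether a number pairs samples. Of 18 same-numbered pairs 13 correlated above 0.1 in their deviations (-0.18 to 0.71), 6 of 12 arrays correlated best with their own number, and the 3 arrays numbered 1 outside dB/dB correlated with one another at 0.40, 0.71 and 0.61.

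The 162 probe sets with separated transgene differences became 70 with the stricter filter, which tests 11983, 5465 and 3427 without either set of arrays, and 255 to 950 with 1 array left out, where fewer differences are compared.

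Signs turned for 4 genes short of the threshold: Cat (0.24 with array weights, 0.54 without those 3 arrays numbered 1, -0.66 to 0.35 with 1 array left out), Kap (0.61 with the male-enriched score as covariate, -2.43 to 1.44 with 1 left out), Hmox1 (0.26 without the 3 arrays, -0.70 to 0.11 with 1 left out) and Gsta4 (-0.58 with array weights, -0.72 without the 3 arrays, -0.34 to 0.66 with 1 left out). The Angptl7 transgene difference with dB/dB was -0.026 with that covariate. The other 25 of 29 genes followed kept their direction in the fits run. Most of them were chosen by their small p in these data, so this was likely from the start.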

Other observations

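Cbr2, a carbonyl reductase, was too dim for the filter and passed in the fit of all probe sets (-1.42, adjusted p = 0.00286), with catalase-Tg at 3.61 to 3.91 and the other arrays near the floor. Mir1931 passed there too (-0.48), with dB/dB at 2.78 to 2.82 and the other 9 arrays at 2.32, a difference at the floor of the scale.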
